A study of Homo sapiens with 11 samples.

Results

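The BCL2 family sets the threshold at which a cell commits to apoptosis through its mitochondria. The genes followed here were BCL2, BCL2L1, MCL1, BAX, BAK1, BBC3, PMAIP1, BCL2L11, BIK and BID. They were chosen by name and found in the count files by their symbols, which gave 10 of 59087 genes. They were measured in messenger RNA of 2 human breast cancer lines in which nemo-like kinase (NLK), an atypical MAP kinase, was lowered or tamoxifen was given. BT483 was established from a ductal breast carcinoma. The T47D-TamR cells were made resistant by keeping T47D in tamoxifen, an antiestrogen, and were propagated in it, so every T47D-TamR library shares that history.

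All cells were first deprived of estrogen for 48 h. In the siRNA arm both lines were transfected at 10 nM for 72 h, and the groups of each line were siNLK type1, siNLK type2, control siRNA with 0.5 µM tamoxifen, and control siRNA alone, a non-targeting pool. In the drug arm, which used T47D-TamR alone and no transfection, the groups were 0.5 µM VX-702, DMSO with 0.5 µM tamoxifen, and DMSO alone. VX-702, a p38 MAP kinase inhibitor, is labelled here as a drug against NLK. The labels do not give the length of the drug treatment. Each of the 11 groups held 1 library, 4 from BT483 and 7 from T47D-TamR, and each line stands only for itself. Replication in the tests therefore came from the second line, siRNA or tamoxifen pair. Separate cultures are not stated in the labels, and the p-values cover just the spread among these samples, which may be technical.

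The proteins of the family meet through a short helix, the BCL-2 homology 3 (BH3) domain. Pro-survival members (BCL2, BCL-XL from BCL2L1, and MCL1) bind the BH3 helices of the others in a surface groove. BAX and BAK1, when freed, form pores in the outer mitochondrial membrane and release cytochrome c, and the BH3-only proteins PUMA (BBC3), NOXA (PMAIP1), BIM (BCL2L11), BIK and BID neutralise the pro-survival members or activate BAX and BAK1. BCL2 is a known estrogen receptor target in breast cancer and a marker of luminal tumours, and MCL1 and BCL-XL are the pro-survival members that such lines often depend on.

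The shared helix is shown at the level of its mRNA, since it is the feature that makes these genes 1 family. Each line below is 30 bases of coding sequence from GENCODE 29 (GRCh38), read along the mRNA. A search for a leucine, any 3 residues, a glycine or alanine, an aspartate, any residue and then phenylalanine, isoleucine, leucine, methionine or valine matched once in the chosen transcript of each member. Not every coding transcript held the match: 7 of 14 did for BCL2L11, 4 of 11 for BID, 4 of 6 for BAX and 1 of 2 for PMAIP1. All did for the other members. The match thus describes the chosen transcripts only. Capitals mark the codon of the matched leucine and the codons of the glycine or alanine and the aspartate.
BCL2: ctgaccCTCcgccaggccGGCGACgacttc
BCL2L1: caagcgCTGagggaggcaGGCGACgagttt
MCL1: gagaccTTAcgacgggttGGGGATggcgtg
BAX: gagtgtCTCaagcgcatcGGGGACgaactg
BAK1: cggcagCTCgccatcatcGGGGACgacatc
BBC3: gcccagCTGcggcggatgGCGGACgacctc
PMAIP1: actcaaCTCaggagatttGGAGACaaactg
BCL2L11: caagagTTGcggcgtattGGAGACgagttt
BIK: ctgcggCTGgcctgcatcGGGGACgagatg
BID: aggcacCTCgcccaggtcGGGGACagcatg

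The marked aspartate codon was GAC in 9 members and GAT in MCL1, and BBC3 alone had an alanine codon before it. Between members the stretches shared from 10 bases of 30 (BCL2L11 and BID) to 23 of 30 (BAK1 and BIK). All lie in coding exons: BCL2 at chr18:63318355-63318384 (minus strand, exon 2 of 3), BCL2L1 at chr20:31721928-31721957 (minus, exon 2 of 3) and MCL1 at chr1:150578871-150578900 (minus, exon 1 of 3). BAX lies at chr19:48955781-48955810 (plus, exon 3 of 6) and BAK1 at chr6:33575393-33575422 (minus, exon 4 of 6). Of the BH3-only genes, BBC3 lies at chr19:47226585-47226614 (minus, exon 3 of 4), PMAIP1 at chr18:59902667-59902696 (plus, exon 2 of 2), BCL2L11 at chr2:111150097-111150126 (plus, exon 4 of 5), BIK at chr22:43127710-43127739 (plus, exon 3 of 5) and BID at chr22:17739421-17739450 (minus, exon 4 of 6). Counts were given per gene, so splice forms with opposite roles, such as the long and short forms of BCL2L1 and of MCL1, were not separated. BCL2 overlaps AC022726.1 on its own strand and AC022726.2 on the other, MCL1 overlaps ADAMTSL4-AS1 on its own strand, and BBC3 and BID overlap microRNA genes. Reads of BCL2L1 and BCL2L11 overlap genes on the other strand (ABALON and MIR4435-2HG), BAK1 overlaps GGNBP1 and has the pseudogenes BAK1P1 and BAK1P2, and no source used here says whether counting was by strand.

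The 2 siRNAs named in the labels' protocol are shown because several members differed between the knockdown libraries. Both are 19 bases long and match NLK on chromosome 17, plus strand.
siRNA#1: gucaguaacagauccaaga
siRNA#2: gagcugaauuugaagacua

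siRNA#1 matches coding bases of exon 2 of 11 (chr17:28122603-28122621), and siRNA#2 matches the 3′ UTR in exon 11 (chr17:28196045-28196063). The labels call the groups type1 and type2 and do not state which number each is.

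Total counts ran from 14637083 to 26915863 per library, lowest in BT483 siNLK type1, and 3 counts, the floor for a value not told from 0, stood for 0.111 to 0.205 CPM. CPM gives a gene's count relative to its library total, and the gene values below were also scaled with TMM factors. The mitochondrial genome supplied 9.18 to 11.5% of BT483 counts, against 6.47 to 8.61% in T47D-TamR. All 8 luminal epithelial markers were over the floor in every library, and they summed to 13762 to 15655 CPM in BT483 and 5707 to 8285 CPM in T47D-TamR. Fibroblast markers summed to 11.9 to 14.7 CPM in BT483 and 53.3 to 78.6 CPM in T47D-TamR, where COL1A1 reached 68.9 CPM. The other 9 were lower: COL1A2 reached 6.56, POSTN 5.23, VIM 2.30, SPARC 2.29, COL3A1 2.13 and DCN 1.09 CPM in the library where each was highest, and LUM, THY1 and PDGFRB at most 0.419 CPM. Of these 10 markers, 3 to 5 were over the floor in BT483 libraries and 2 to 9 in T47D-TamR libraries. The 6 leukocyte markers summed to at most 0.544 CPM in any library, and the 4 endothelial markers to 1.75 to 3.49 CPM in BT483 and 0 to 0.357 CPM in T47D-TamR. NLK mRNA was 28.4% and 18.0% of control in BT483 with type1 and type2, and 35.4% and 41.7% of control in T47D-TamR. Over both lines it fell by 1.75 on the log2 scale (SE 0.21, adjusted p = 0.0308, edgeR quasi-likelihood test). That call was lost in 10 other settings, 6 of which leave out a single library, with adjusted p of 0.116 to 1 and log2 changes of -1.92 to -1.55.

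Between genes, levels were compared as TPM, each gene's share of all transcripts after division by transcript length. MCL1 was the highest member in every library, at 314 to 359 TPM in BT483 and 156 to 229 TPM in T47D-TamR, and BCL2L1 was second at 156 to 188 and 78.9 to 110 TPM, except with type1 in T47D-TamR, where BAK1 was above it (98.8 against 94.9 TPM). MCL1 made up 60.0 to 73.9% of the summed TPM of BCL2, BCL2L1 and MCL1 over all libraries. The family gene BCL2L2 was outside this sum, at 37.2 to 50.3 TPM in BT483 and 16.3 to 22.3 TPM in T47D-TamR. BCL2 was the lowest member in T47D-TamR and lowest by median in BT483, with 3.33 to 4.58 TPM in BT483 and 0 to 0.0628 TPM in T47D-TamR.

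Below these, the order of the genes differed between the lines. In BT483 the medians ran BIK 89.5, BAX 84.4, BAK1 49.8, BBC3 23.8, BID 23.6, BCL2L11 15.3 and PMAIP1 6.19 TPM, and the ranges of BIK and BAX, of BAX and BAK1, of BBC3 and BID, and of BID and BCL2L11 overlapped. In T47D-TamR they ran BAK1 69.9, BAX 44.0, BID 26.8, PMAIP1 7.89, BCL2L11 7.89, BIK 6.57 and BBC3 4.48 TPM, and the last 4 overlapped their neighbours. BIK was thus among the highest pro-death transcripts of 1 line and among the lowest of the other.

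Summed over the 5 BH3-only members followed here, BT483 held 136 to 193 TPM and T47D-TamR 49.0 to 65.3 TPM. BIK supplied 50.7 to 65.2% of that sum in BT483, against 9.80 to 16.3% in T47D-TamR. BID, which caspase-8 cleaves to link death receptors to mitochondria, supplied 10.1 to 17.7% in BT483 and 37.8 to 59.2% in T47D-TamR. Among these 5 members, BIK therefore made up most of the sum in BT483, and BID led it in every T47D-TamR library. The sum leaves out the family genes BAD, BMF and HRK, so it is not the whole BH3-only pool. BAD was 39.3 to 57.0 TPM in T47D-TamR, above BID at 24.7 to 33.7 TPM. In BT483, BAD was 32.5 to 48.0 TPM and BMF 15.6 to 25.4 TPM.

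**Figure D1:**
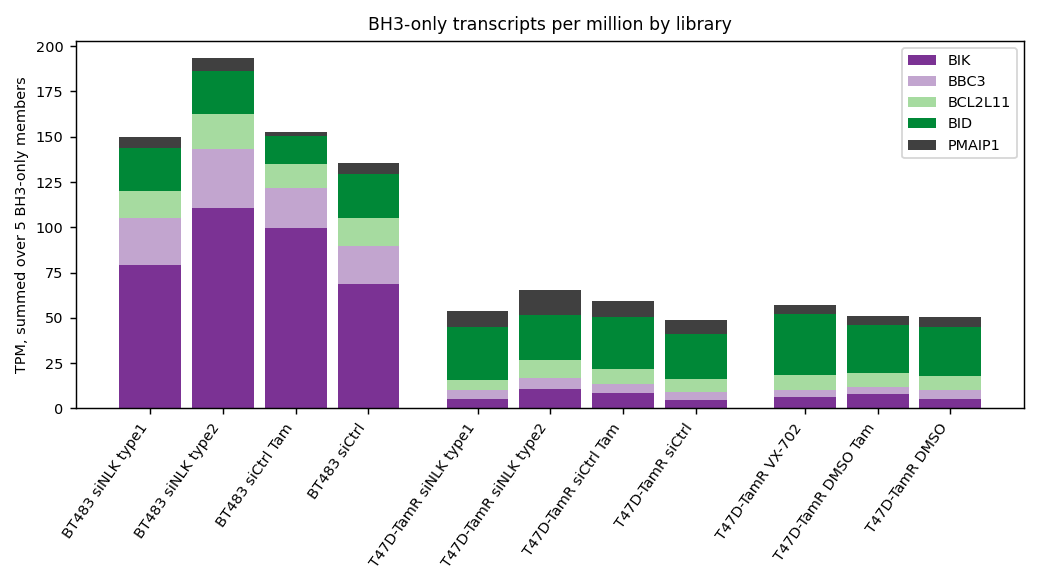
Stacked bars give the TPM of the 5 BH3-only members in each of the 11 libraries, 4 of BT483 on the left, then the siRNA arm and the drug arm of T47D-TamR. BT483 libraries sum to 136 to 193 TPM with BIK as the largest block, and T47D-TamR libraries sum to 49.0 to 65.3 TPM with BID as the largest block.

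The lines differed in every member. Over the 4 conditions measured in both lines, all 10 members passed the test (edgeR, blocked by condition, adjusted p under 0.05), 7 higher and 3 lower in BT483. The share of all 21990 tested genes that passed was 70.7%, with 35.6% higher and 35.1% lower, so passing this test was common. The sizes ranged widely, from a log2 fold change of 7.20 for BCL2 to one of -1.10 for PMAIP1, with a median of 0.72 over the members and 0.01 over all genes. In bulk RNA, fewer cells of a type and less RNA per cell cannot be told apart, and the marker sums above moved with line as well; their part in these differences was not tested.

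BCL2, the founding pro-survival member, was present in BT483 and nearly absent from T47D-TamR. Its counts in BT483 were 196 with type1, 491 with type2, 468 with tamoxifen and 233 with control siRNA, against 1, 0, 7 and 2 in the same conditions of T47D-TamR. The drug arm of T47D-TamR held 1 count with VX-702, 7 with DMSO and tamoxifen and 0 with DMSO. In CPM this was 12.7 to 18.0 in BT483 and at most 0.271 in T47D-TamR, so the lines were far apart. The share of all genes as far apart was not counted.

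Summed over the 4 shared conditions, BCL2 had 1388 counts in BT483 and 10 in T47D-TamR, which after scaling is a 157-fold ratio (exact 95% interval 85.3 to 329, counting error only). The fitted log2 fold change was 7.20 (SE 0.41, adjusted p = 6.1e-08, edgeR). It was 2.1 in limma on the deposited log2 TPM, which is another scale. BCL2 passed the count filter through its BT483 counts, and it was not tested when each library needed 10 counts or more. The size of its fold change rests on few T47D-TamR counts, and 1 library of that siRNA arm was at 0. Its 10 neighbouring tested coding genes, in equal number from each side, had line log2 fold changes of -1.97 to 4.95 with a median of 0.10. Of the 18 BCL2 counts in all T47D-TamR libraries, 14 were in the 2 tamoxifen libraries.

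The other 2 pro-survival members were also higher in BT483, by far less. BCL2L1 stood at 171 to 201 CPM in BT483 and 94.0 to 127 CPM in the siRNA arm of T47D-TamR (log2 fold change 0.78, SE 0.11, adjusted p = 4.67e-05, edgeR). MCL1 stood at 465 to 523 CPM in BT483 and 293 to 351 CPM in T47D-TamR (0.62, SE 0.10, adjusted p = 0.000146, edgeR). The values of neither gene overlapped between the lines. With 70.7% of all genes passing the line test this may be common, and how many did not overlap was not counted.

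The pore-forming pair went opposite ways. BAX was 62.5 to 74.6 CPM in BT483 and 38.7 to 52.1 CPM in the T47D-TamR siRNA arm (log2 fold change 0.65, SE 0.12, adjusted p = 0.000627, edgeR). BAK1 was 37.6, 32.9, 63.4 and 34.2 CPM in BT483 with type1, type2, tamoxifen and control siRNA, against 88.2, 46.0, 66.1 and 57.7 CPM in T47D-TamR (-0.63, SE 0.17, adjusted p = 0.0075, edgeR). The BAK1 values of the lines overlapped, because the tamoxifen library of BT483 was above 2 libraries of T47D-TamR. The BAK1 call was lost in limma on the deposited log2 TPM (adjusted p = 0.163) and without the condition block (adjusted p = 0.0654, edgeR), and the log2 fold change was -0.40 without BT483 type1 and -0.41 without T47D-TamR type1.

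Among the BH3-only members followed here, BIK, a protein of the endoplasmic reticulum membrane, differed most. It was 24.3 CPM with type1, 35.0 with type2, 32.6 with tamoxifen and 21.6 with control siRNA in BT483, against 2.09, 3.56, 2.91 and 1.71 CPM in T47D-TamR (log2 fold change 3.49, SE 0.16, adjusted p = 7.03e-09, edgeR). The BIK values of the lines were far apart in every condition, and how many of all genes show this was not counted. BBC3, whose protein PUMA binds all the pro-survival members, was 26.3, 34.6, 24.0 and 22.1 CPM in BT483 and 5.76, 6.82, 5.73 and 5.12 CPM in T47D-TamR (2.18, SE 0.15, adjusted p = 1.48e-07, edgeR). BCL2L11, a FOXO target that binds all pro-survival members, was 31.0 to 43.0 CPM in BT483 and 15.3 to 23.6 CPM in T47D-TamR (0.88, SE 0.13, adjusted p = 1e-04, edgeR).

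The remaining BH3-only members were lower in BT483. PMAIP1, whose protein NOXA binds MCL1, was 4.39, 5.16, 1.64 and 4.64 CPM in BT483 and 7.89, 10.8, 6.86 and 6.58 CPM in the siRNA arm of T47D-TamR (log2 fold change -1.10, SE 0.24, adjusted p = 0.00169, edgeR). The untransfected T47D-TamR libraries had 3.87 to 4.40 CPM of PMAIP1, which overlaps the BT483 values. BID was 23.6 to 35.2 CPM in BT483 and 38.5 to 53.1 CPM in the T47D-TamR siRNA arm (-0.51, SE 0.15, adjusted p = 0.0103, edgeR). Its call was lost in limma (adjusted p = 0.0805) and when BT483 type1, BT483 tamoxifen, T47D-TamR type1 or T47D-TamR tamoxifen was left out (edgeR adjusted p = 0.0599, 0.0638, 0.056 and 0.0551), and its log2 fold change was -0.32 without BT483 tamoxifen.

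**Figure D2:**
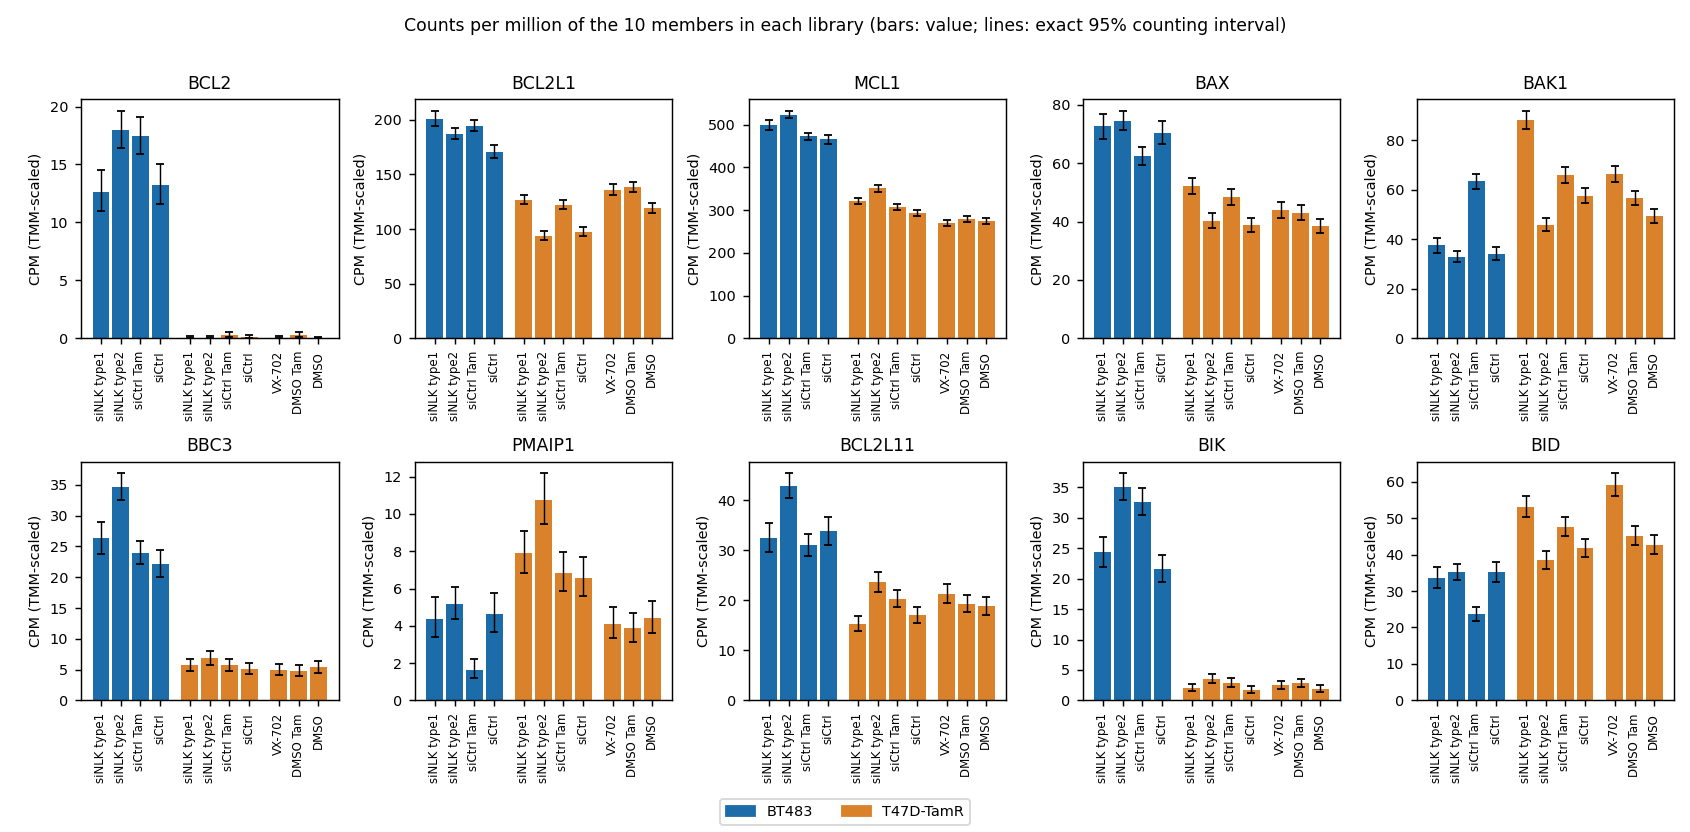
Bars give the CPM of each member in each library, BT483 in blue and T47D-TamR in orange, with exact 95% counting intervals as lines; each panel has its own axis from 0. BCL2 is 12.7 to 18.0 CPM in BT483 and at most 0.271 CPM in T47D-TamR, BIK and BBC3 are high in BT483 alone, and PMAIP1 dips to 1.64 CPM in BT483 with tamoxifen.

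**Figure D3:**
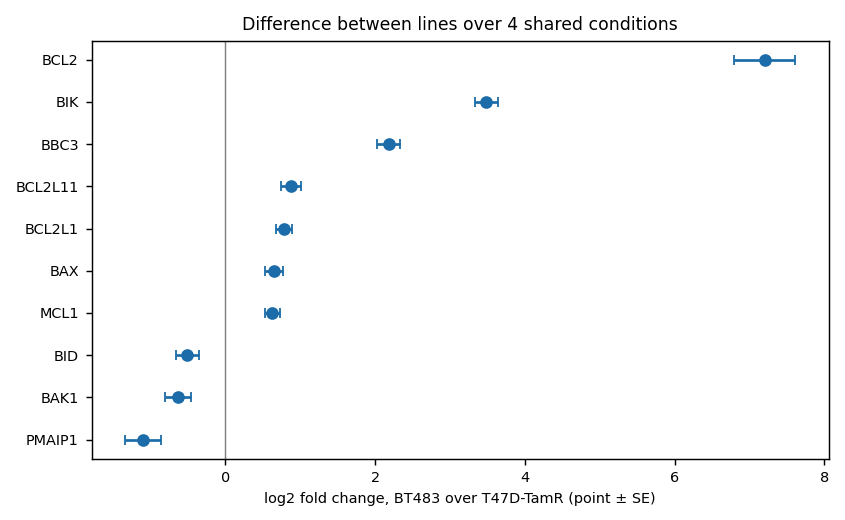
Points give the log2 fold change of each member between BT483 and T47D-TamR over 4 conditions in each line, with the SE as a line. The 7 members above 0 are led by BCL2 at 7.20 and BIK at 3.49, and BID, BAK1 and PMAIP1 lie below 0.

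NLK knockdown did not change any member past the threshold. In the fit over all libraries, 4 knockdown against 2 control siRNA libraries, edgeR called 0 of the 10 members, and DESeq2 and limma also called 0. Among all 24023 tested genes, 0.00416% were called, which is NLK itself. At an unadjusted p under 0.05 stood 1 member, BIK, and 1331 genes in all. The 10 members all had a coefficient above 0, with a median of 0.17 on the log2 scale, where 53.4% of all genes were above 0 and their median was 0.02.

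BIK had the largest coefficient with knockdown. Its CPM was 24.3 with type1 and 35.0 with type2, against 21.6 with control siRNA in BT483, and 2.09 and 3.56 against 1.71 in T47D-TamR. All 4 knockdown libraries were above their control in BIK, as they also were in MCL1, BAX and BBC3. How many of all genes show this was not counted. In T47D-TamR the summed fibroblast markers were also higher with knockdown, at 78.6 and 76.1 CPM with type1 and type2 against 53.3 CPM with control siRNA (in BT483 13.6 and 14.2 against 14.7 CPM); their part in the result was not tested. The BIK coefficient was 0.56 (SE 0.22, adjusted p = 0.88, edgeR), so it does not pass over all genes. BBC3 and PMAIP1 had coefficients of 0.34 each, BBC3 with SE 0.18 and an adjusted p of 0.88 (edgeR), and that of BBC3 was 0.19 without BT483 control siRNA.

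In each line taken alone, 0 members were called in BT483 (0.00416% of genes called) and 0 in T47D-TamR (0.00416%), with 0 members at an unadjusted p under 0.05 in either line and 0 called by DESeq2 or limma. The lowest adjusted p of a member was 1 in BT483 and 0.859 in T47D-TamR (edgeR). The difference between lines in the knockdown response, tested as an interaction, called 0 members and 0% of genes in edgeR, DESeq2 and limma, and 735 genes and 0 members had an unadjusted p under 0.05. Its estimate for BIK was -0.21 with SE 0.46, so a difference of that order was not detectable with these libraries. In BT483 alone the called gene was NLK (-2.13, SE 0.26). In T47D-TamR alone NLK itself was not called (-1.38, SE 0.24), so 0 members called there does not show that they were unchanged.

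The 2 siRNAs against NLK differed in several members by more than counting error, yet none passed the test. Type2 against type1 was fitted with the lines as replicates; edgeR called 0 members (0.47% of genes called, 3 members and 2191 genes at an unadjusted p under 0.05), and DESeq2 and limma called 0. The 3 were BIK, BCL2L11 and BAK1. BIK was 1.44 times as high with type2 in BT483 (95% counting interval 1.28 to 1.63) and 1.70 times in T47D-TamR (1.19 to 2.46), with a coefficient of 0.63 (SE 0.20, adjusted p = 0.251, edgeR). BCL2L11 was 1.32 times as high in BT483 (1.19 to 1.47) and 1.54 times in T47D-TamR (1.35 to 1.76), with 0.51 (SE 0.17, adjusted p = 0.283, edgeR). Both genes had higher values with type2 in both lines.

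BAK1 ran the other way. Its type2 over type1 ratio was 0.876 in BT483 (0.788 to 0.974) and 0.521 in T47D-TamR (0.484 to 0.561), with a coefficient of -0.60 (SE 0.23, adjusted p = 0.421, edgeR). This was -0.16 without T47D-TamR type1 and -0.96 without BT483 type1. In T47D-TamR, BAK1 was 88.2 CPM with type1, the highest of the 11 libraries, and 46.0 CPM with type2, against 57.7 CPM with control siRNA, so the siRNAs lay on either side of the control. BCL2L1, BAX and BID had ratios of 0.740, 0.771 and 0.725 in T47D-TamR, and of 0.933, 1.03 and 1.05 in BT483. MCL1 was slightly above 1 in both lines, at 1.05 in BT483 (1.02 to 1.08) and 1.09 in T47D-TamR (1.06 to 1.13). BBC3 and PMAIP1 were also above 1 in both, with an interval that included 1 for BBC3 in T47D-TamR and for PMAIP1 in BT483. No pattern by role was tested.

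**Figure D4:**
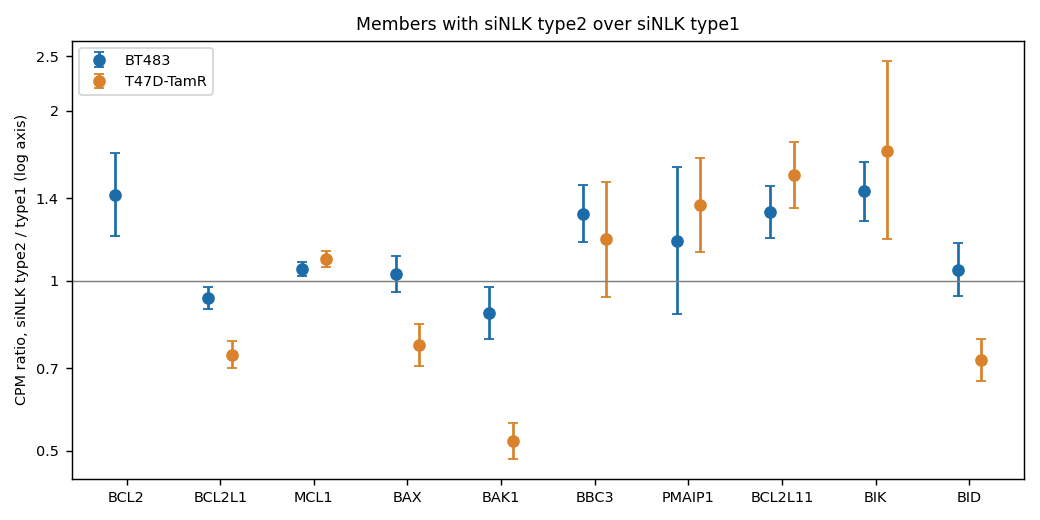
Points give the CPM ratio of siNLK type2 over siNLK type1 for each member on a log axis, BT483 in blue and T47D-TamR in orange, with exact 95% counting intervals; BCL2 in T47D-TamR, with 0 and 1 counts, is left out. BIK and BCL2L11 lie above 1 in both lines, and BAK1 in T47D-TamR is lowest at 0.521.

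Tamoxifen was compared in 3 pairs, each with the library of its own line and arm. The shared coefficient called 0 members in edgeR, DESeq2 and limma, with 0.0416% of genes called, and 1 member and 1590 genes at an unadjusted p under 0.05. That member was BIK, at 32.6 against 21.6 CPM in BT483, 2.91 against 1.71 in the siRNA arm of T47D-TamR, and 2.80 against 1.84 in its drug arm, each time with tamoxifen first. The ratios were 1.51 (95% counting interval 1.34 to 1.71), 1.70 (1.16 to 2.54) and 1.52 (1.04 to 2.25). All 3 pairs were higher with tamoxifen in BIK, as they also were in BCL2L1, BCL2, MCL1 and BAK1. The MCL1 ratios were just 1.02, 1.05 and 1.02. How many of all genes were higher in all 3 pairs was not counted. The shared coefficient was above 0 in 8 of the 10 members and in 52.7% of all genes. The BIK coefficient was 0.64 (SE 0.22, adjusted p = 0.51, edgeR). Fibroblast markers moved with tamoxifen in T47D-TamR: 6 of the 7 tested had a coefficient below 0 (median -2.44, 0 called), and 4 of 10 were over the floor in each tamoxifen library, against 8 with control siRNA and 7 with DMSO. Their summed CPM, mostly COL1A1, was 63.6 and 65.4 with tamoxifen, against 53.3 and 61.9 without, and their part in the result was not tested.

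BCL2L1 was likewise higher with tamoxifen in all 3 pairs, by ratios of 1.14, 1.25 and 1.16 (coefficient 0.24, SE 0.13, adjusted p = 0.80, edgeR). BCL2 was 17.5 CPM with tamoxifen and 13.2 CPM without it in BT483, a ratio of 1.32 (1.13 to 1.56). In T47D-TamR it had 7 counts in each tamoxifen library, against 2 with control siRNA and 0 with DMSO; the first pair gives a ratio of 3.42 with an interval of 0.651 to 33.7. In T47D-TamR alone, edgeR called 0 members with tamoxifen (0.221% of genes called), and DESeq2 and limma 0. BCL2 (2.62, SE 0.89, adjusted p = 0.493, edgeR) and BIK (0.68, SE 0.31, adjusted p = 0.815, edgeR) had an unadjusted p under 0.05, as did 1444 genes. BCL2 passed the count filter through its counts in BT483. With 0 to 7 counts per T47D-TamR library, its p-value cannot decide whether tamoxifen changed BCL2 in that line.

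In BT483 the tamoxifen library was outside the range of the other 3 of its line in PMAIP1, BAK1 and BID. This was also so for BAX (62.5 against 70.3 to 74.6 CPM) and, narrowly, BCL2L11 (31.0 against 32.5 to 43.0 CPM). How many of all genes lie outside that range was not counted. PMAIP1 was 1.64 CPM with tamoxifen and 4.64 CPM with control siRNA, a ratio of 0.354 (95% counting interval 0.239 to 0.516, from 44 and 82 counts), and its ratios in T47D-TamR were 1.04 and 0.879. BAK1 was 63.4 CPM with tamoxifen and 34.2 CPM without (ratio 1.85, 1.69 to 2.04), against ratios of 1.15 and 1.15 in T47D-TamR. BID was 23.6 CPM with tamoxifen and 35.2 CPM without (ratio 0.671, 0.599 to 0.750), and 1.14 and 1.05 in T47D-TamR.

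With the spread borrowed from the other libraries, since the BT483 pair is 1 library against 1, edgeR called 0 members (1.49% of genes called, 3 members and 2083 genes at an unadjusted p under 0.05), and DESeq2 and limma called 0. PMAIP1 had a coefficient of -1.50 (SE 0.42, adjusted p = 0.136), BAK1 one of 0.89 (SE 0.38, adjusted p = 0.549) and BID one of -0.58 (SE 0.26, adjusted p = 0.551, all edgeR). With no filter on low counts, BAK1 passed (adjusted p = 0.0203, edgeR). It also passed when T47D-TamR type1 or type2 was left out (adjusted p = 0.0388 and 0.0357). The difference between lines in the tamoxifen response called 0 members in edgeR, DESeq2 and limma (0.691% of genes called). The lowest adjusted p was that of PMAIP1 at 0.355 (-1.44, SE 0.50, edgeR). An unadjusted p under 0.05 was found for 3 members and 2090 genes. The 3 were PMAIP1, BID and BCL2, the last at 7 counts or fewer in T47D-TamR.

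VX-702 was given to T47D-TamR alone and compared with DMSO as 1 library against 1, with no test. None of the 10 members was past 1.5-fold, where 11% of the 16357 genes with a mean of at least 1 CPM were. The largest ratios among members over the count floor were those of BID, at 59.2 against 42.7 CPM (1.39, 95% counting interval 1.28 to 1.5), BAK1, at 66.5 against 49.5 CPM (1.34, 1.25 to 1.45), and BIK, at 2.47 against 1.84 CPM (1.34, 0.897 to 2.02). MCL1 differed least, at 270 CPM with VX-702 and 274 CPM with DMSO. BID with VX-702 was the highest of the 11 libraries.

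Transfection itself could be read in T47D-TamR, as control siRNA against DMSO with and without tamoxifen; the arms also differ in whatever was handled apart. PMAIP1 was 6.86 and 6.58 CPM in the transfected libraries with and without tamoxifen, against 3.87 and 4.40 CPM in the DMSO libraries. All 4 transfected T47D-TamR libraries were above all 3 untransfected ones in PMAIP1, and how many of all genes show this was not counted. The PMAIP1 ratios were 1.77 with tamoxifen (1.38 to 2.28) and 1.49 without (1.17 to 1.92). The coefficient was 0.66 (SE 0.31, adjusted p = 0.981, edgeR), and 0.33 without T47D-TamR control siRNA with tamoxifen. Fibroblast markers moved with the arm as well: 6 of the 7 tested had a coefficient above 0 (median 2.03, 0 called). Their summed CPM, mostly COL1A1, went the other way. It was 53.3 with control siRNA against 61.9 with DMSO, and 63.6 against 65.4 when tamoxifen was added. The part of these markers in the result was not tested. Between the arms edgeR, DESeq2 and limma called 0 members (0.0333% of genes called by edgeR, 0 members and 1227 genes at an unadjusted p under 0.05).

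Counted over the 10 pairs of single libraries and the 10 members, 14 of 100 differences were past 1.5-fold on the scale with a prior count of 2. Per pair the members past it numbered 0 to 3, and their share was near that of all genes with a mean of at least 1 CPM. That background was 9.02% with type1, 15.9% with type2 and 18.5% with tamoxifen in BT483, and 11.2%, 20.5% and 14.4% for the same treatments in the T47D-TamR siRNA arm. It was 11% with VX-702 and 6.82% with tamoxifen in the drug arm, and 9.92% and 9.91% for transfection without and with tamoxifen. Of the 14, 4 were BCL2 in T47D-TamR at 7 counts or fewer. BIK made up 4 (type2 in both lines, tamoxifen in BT483 and in the T47D-TamR siRNA arm), PMAIP1 3, BAK1 2 and BBC3 1, while BCL2L1, MCL1, BAX, BCL2L11 and BID had 0.

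**Figure D5:**
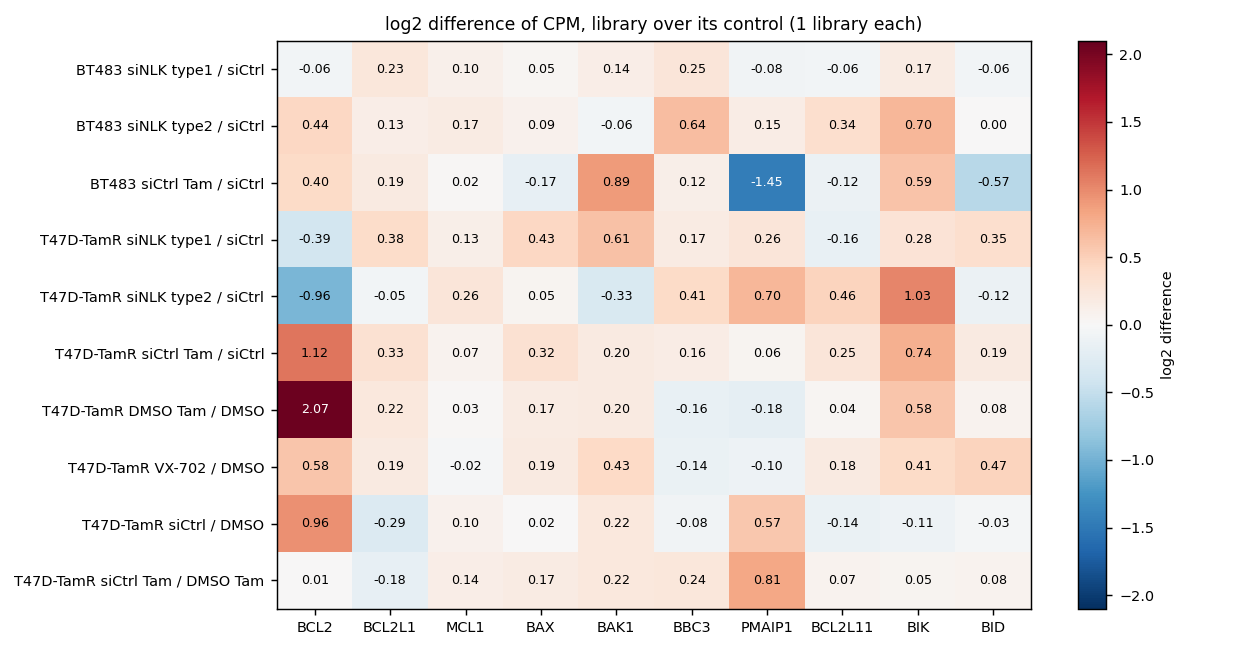
Cells give the log2 difference in CPM (prior count 2) of each member between a library and its control, 1 library each, red for higher and blue for lower. BIK is above 0 with knockdown, tamoxifen or VX-702 in every pair drawn, PMAIP1 is -1.45 with tamoxifen in BT483, and the BCL2 cells of T47D-TamR rest on 7 counts or fewer.

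The wider death pathway was described with 4 lists. Of 13 other BCL2 family genes 9 could be tested, and BCL2A1, BCL2L10, BCL2L14 and BCL2L15 were too low, at no more than 0.387 CPM. Between the lines 5 of the 9 were higher and 3 lower in BT483, where 35.6% of all genes were called higher and 35.1% lower. Of these calls, BOK held in 7 and BAD in 8 of 14 other settings, and the rest held wherever they were tested. HRK, a BH3-only gene, had 14 to 80 counts per BT483 library, against 0 to 5 in the T47D-TamR siRNA arm (fitted log2 fold change 4.23, SE 0.60, which depends on the prior count). BMF, also BH3-only, was 28.0 to 47.5 CPM in BT483 and 9.74 to 14.5 CPM in the T47D-TamR siRNA arm (log2 fold change 1.75, SE 0.17, adjusted p = 2.37e-06, edgeR). BCL2L13 (-1.40, SE 0.11) and BCL2L12 (-1.35, SE 0.16) were lower in BT483.

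Of 9 genes of the death receptor branch, 3 were higher and 6 lower in BT483, where 70.7% of all genes were called in either direction. FADD and TNFSF10 held in 8 of 14 other settings each and TRADD in 12, and the rest held in all 14. FAS, the receptor of FAS ligand, was 1.57 to 2.19 CPM in BT483 and 15.5 to 27.2 CPM in the T47D-TamR siRNA arm (log2 fold change -3.54, SE 0.19, adjusted p = 2.67e-08, edgeR). The TRAIL receptors TNFRSF10B and TNFRSF10A had -2.27 (SE 0.14) and -2.01 (SE 0.14), and the TNF receptor TNFRSF1A had 1.58 (SE 0.12). Of the 18 tested genes of the apoptosome and caspase list, 4 were higher and 7 lower, a smaller share than the 70.7% of all genes, led by BIRC3 (-3.23, SE 0.31), which encodes an inhibitor of apoptosis protein, and DFFA (-2.75, SE 0.11), which encodes the inhibitor of the caspase-activated nuclease. Of 17 regulators of the family, 13 were called, again beside 70.7% of all genes: 5 were higher, among them PGR (4.60, SE 0.26), FOXO1 (3.24, SE 0.32) and MYC (2.40, SE 0.43), and 8 lower, among them TP63 (-5.66, SE 0.43). In these 2 lists, some line calls were lost in part of 14 other settings. HUWE1 held in 8, BIRC5 in 9, CASP8, XIAP and IRF3 in 10 each, and CASP6 in 13.

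No gene of the 4 lists was called for knockdown, for the shared tamoxifen coefficient, for the siRNA difference or for transfection. Tamoxifen in BT483 called 1 gene of the apoptosome and caspase list and 5 regulators, all lower, where 1.4% of all genes were called lower. BIRC5, which encodes survivin, was 7.99 CPM with tamoxifen and 62.0 CPM with control siRNA (-2.96, SE 0.28, adjusted p = 0.000115, edgeR), and E2F1, a cell cycle factor that can activate TP73 and BH3-only genes, was 12.2 and 85.6 CPM (-2.81, SE 0.27, adjusted p = 0.000115, edgeR). MYC was 19.6 CPM with tamoxifen and 70.9 CPM without (-1.85, SE 0.29, adjusted p = 0.00321, edgeR), and PGR and TP73 were also called, with adjusted p of 0.0434 and 0.0277 (edgeR).

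In T47D-TamR, BIRC5 was 145 CPM with tamoxifen and 123 CPM with control siRNA, and 141 and 132 CPM in the drug arm. The difference between lines passed for BIRC5 (-3.12, SE 0.32, adjusted p = 0.00072), E2F1 (-3.05, SE 0.32, adjusted p = 0.00072) and MYC (-2.02, SE 0.36, adjusted p = 0.0134, all edgeR). The calls in BT483 for BIRC5, E2F1 and MYC were lost in limma (adjusted p = 0.057, 0.057 and 0.076) and without the block (0.146, 0.146 and 0.796). The difference between lines was lost in limma for BIRC5 and E2F1 (0.131 each) and MYC (0.198), without the block (0.123, 0.117 and 0.501, where the MYC estimate turned to 1.09), and when T47D-TamR control siRNA, control siRNA with tamoxifen or DMSO with tamoxifen was left out (0.0604 to 0.0893 for BIRC5 and E2F1, 0.141 to 0.405 for MYC, which was also lost without DMSO at 0.106). PGR and TP73 were called under 5 of 14 and 8 of 15 other settings.

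Over the 11 libraries, with log2 CPM centred within each line, the genes most like a member were found by Pearson r among 12253 genes with a mean of at least 5 CPM. BCL2L11 was followed most closely, by PLXND1 (r = 0.994) and PODXL (0.95). BIK was followed by GPRC5C (0.978) and RETREG3 (0.977), MCL1 by TDRD7 (0.978) and TNFAIP3 (0.975), and PMAIP1 by ATP1B3 (0.969) and XK (0.966). BBC3 was followed by STAT2 (0.951) and HLA-F (0.948), and BAK1 by ORMDL3 (0.951). For BCL2L1 these were CHST12 (0.94) and EFNA4 (0.934), for BAX CYC1 (0.94) and SLC25A1 (0.936), for BID the pseudogenes RPL13AP5 (0.937) and RPL18AP3 (0.932), and for BCL2 PHF21B (0.914) and TBKBP1 (0.853). These are the highest of many values over libraries that share depth and handling, and are given as a description.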

How the data were processed

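Gene counts of 11 libraries (TruSeq Stranded mRNA, paired reads, per the labels' protocols) were used as the authors deposited them. The build was GRCh38, per the submitters' processing notes, and the sources used here name no aligner, annotation or counting settings. The authors also deposited log2(TPM + 1) values per library, from which TPM was recovered, and a table of log2 TPM brought to nearly equal distributions, used for limma only. All its columns matched a sample by name.

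Counts were tested with edgeR 4.0.16 in R 4.3.3: TMM, filterByExpr, quasi-likelihood F test, Benjamini-Hochberg adjustment over all tested genes, threshold 0.05. Knockdown, tamoxifen, transfection arm and VX-702 were coefficients of an additive fit of 11 libraries blocked by line and arm. Further fits split knockdown and tamoxifen by line, added a coefficient for the siRNA, or compared lines in 8 siRNA libraries blocked by condition. DESeq2 1.42.0 and limma 3.58.1 were alternatives, beside other scaling, filters, no block and each library left out. Differences of single libraries used a prior count of 2 and a 1.5-fold limit. Intervals are exact 95% intervals (binomial for ratios, Poisson for CPM) and cover counting error only, as reads carry no molecular identifiers. BH3 stretches were translated with Biopython 1.88, and the scripts were tested on simulated data.

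The named genes were the 10 members, NLK, 2 to 4 genes of largest change per list and the 2 genes most like each member; BIRC5, E2F1 and MYC and the other called list genes followed from their calls. Some genes that this rule names are not reported here. The members, lists and settings were chosen with earlier results of these data known.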

Additional observations from a re-analysis of the deposited data

How the results depend on the processing

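Over the alternatives run, 0 members stayed 0 in the tests of knockdown, of tamoxifen over both lines and in T47D-TamR, of both differences between lines, of the siRNAs and of transfection, with each library left out as well. For tamoxifen in BT483 the count was 1 with no filter on low counts and 0 to 1 with a library left out. For the line difference the 10 members became 8 in limma and 9 when each library needed 10 counts or more, where BCL2 was not tested, and 9 to 10 with a library left out. As replicate pairing, the block of line and arm or of condition was used, since each group held 1 library; with no replicate block the line count was 9 and the other counts 0, with no such fit for transfection. Of 100 differences between single libraries, 9 were past 1.5-fold on the deposited log2(TPM + 1) values, 17 with a prior count of 0.5 and 13 without TMM. NLK kept its direction, and its adjusted p (edgeR) was 0.144 with 10 counts required in each library, 0.209 in the 8 siRNA libraries alone and 1 with no replicate block, and 0.835 in limma; with BT483 control siRNA, BT483 type1, T47D-TamR control siRNA, T47D-TamR type1, DMSO or DMSO with tamoxifen left out it was 0.116 to 0.373. Calls over all genes moved more: knockdown had 1 in edgeR, 6 in DESeq2, 0 in limma and 249 with no filter, and tamoxifen 10, 120, 0 and 513. Tamoxifen in BT483 had 357, 481, 9 and 670, its difference between lines 166, 328, 1 and 502, the siRNA difference 113, 354, 0 and 339, tamoxifen in T47D-TamR 53, 169, 0 and 354, and transfection 8, 45, 0 and 206. Knockdown had 1, 2, 0 and 163 in BT483 and 1, 7, 0 and 108 in T47D-TamR. Under the filter of 10 counts the siRNA difference had 50 calls and tamoxifen in T47D-TamR 0. With a library left out, calls over all genes ranged from 0 to 406 for the siRNA difference (0 without BT483 type1 or T47D-TamR type1, 406 without BT483 tamoxifen), 0 to 81 for tamoxifen, 190 to 480 for tamoxifen in BT483, 0 to 100 for it in T47D-TamR, 0 to 271 for their difference, 0 to 149 for knockdown in BT483 (149 without type1), 0 to 23 for it in T47D-TamR and 0 to 40 for transfection. The causes were not tested. Leaving out the BT483 control or tamoxifen library left no estimate of tamoxifen in BT483. Depth limits BCL2 in T47D-TamR, at 0 to 7 counts.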

Other observations

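The neighbours of the members on their chromosomes were compared between lines as a description. For each member these were 10 tested coding genes, the closest by order of start position in equal number on each side, at any distance. The neighbours of BIK, which was 3.49 higher in BT483 on the log2 scale, had a median of -0.23 and a range of -1.24 to 8.28. The neighbours of BBC3 had a median of 0.55 (-0.78 to 3.06) and those of MCL1 one of 0.68 (-0.55 to 4.11), beside 2.18 and 0.62 for the members themselves. The neighbours of PMAIP1 had a median of -0.12 (-1.73 to 0.57), beside -1.10 for PMAIP1. BIK, BBC3, MCL1 and PMAIP1 all lay inside the range of their neighbours, and BCL2 at 7.20 lay above its highest neighbour at 4.95.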
